A study of Homo sapiens with 3 samples.

Results

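FUT1, SV2B, GSTT1, ANKFN1, FAM49A, MOBKL2B and ECM2 are 7 genes whose transcripts were dimmer in 1205Lu melanoma bodies than in the monolayer that preceded them, and brighter in the monolayer that grew out of the bodies than in the starting one. The genes were selected on exactly these signals, so the pattern itself is given as a description and carries no test. Every probe annotated with one of the 7 symbols was taken, which gave 10 of the 41000 probes, for 7 of the 30982 gene names on the array. FAM49A and MOBKL2B are the names on the array for the genes now called CYRIA and MOB3B.

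The 1205Lu line is a human melanoma line that came from a lung metastasis formed in a mouse by the line WM793. Total RNA was measured from 3 populations of this line, each on 1 Agilent 1-colour array (Cy3 label), and all 3 arrays sat on 1 slide. The original monolayer (OM) had spent 14 days in standard medium, which is RPMI-1640 with fetal calf serum. The melanoma bodies (MB), which are attached 3D spheroids, had been kept 14 days in human embryonic stem cell (hESC) medium, which carries a serum replacement instead of serum. The new monolayer (NM) came from bodies kept 14 days in hESC medium and moved for 10 days to standard medium, and bodies still present were taken off before its RNA was prepared. Medium and growth form changed together, so the effect of the medium and that of the 3D form cannot be told apart. There were no replicate arrays, so no value has a spread between cultures and no p-value is given. The error given with each signal is the one that Agilent's Feature Extraction software assigns to a spot from its error model (10% of the signal plus a constant term), and precision is limited by there being so few arrays.

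The 7 genes belong to no common pathway, and each is known for a different job. FUT1 encodes the fucosyltransferase that makes the H antigen, the sugar on which the A and B blood group antigens are built. SV2B is a glycoprotein of synaptic vesicles and other secretory vesicles, GSTT1 is a detoxifying glutathione S-transferase of the theta class, and ANKFN1 carries ankyrin repeats and a fibronectin type III domain. FAM49A binds active RAC1 and restrains its signal to the WAVE complex, which drives the branching of actin at the cell edge. MOBKL2B belongs to the MOB family, whose best known members activate the NDR and LATS kinases of the Hippo pathway, and ECM2 is a matrix protein with leucine-rich repeats.

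Since each signal is the hybridisation to 1 oligonucleotide of 60 bases, the first 30 bases of the brightest probe are shown for 6 of the genes as they stand in the array annotation, in lower case throughout.
FUT1: aactcagctgccacgggtgagagagcagga
SV2B: atgtcggctgtggagggttaaagggatgag
ANKFN1: caaaagctttctggctctgaatctatggaa
FAM49A: gggctgctaaatgccctcaggttcactaca
MOBKL2B: atcttcctgacttcttacctttaacatccc
ECM2: actggtgttagctgagaactctgtaagtcc
MOBKL2B and ECM2 have a further probe, and these are shown because they did not behave like the brighter ones.
MOBKL2B, other probe: agacagggagtcgtggctgtctctacataa
ECM2, other probe: tatctgggaaaatgtatggtaggggatata
These 8 probes are 35% to 45% G and C over their full length. Each of the 10 probes of the 7 genes is printed in 1 spot, so none has replicate spots. The full FUT1 and SV2B probes hold a stop codon in each of their forward reading frames. Positions are given in hg17, the build of the deposited annotation, and no exon or UTR annotation of that build was used here.

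FUT1 was the gene with the widest range. Its probe (chr19:53943080-53943137, minus strand) gave an unscaled signal of 160.4 ± 16.8 a.u. on OM, 4.70 ± 4.69 a.u. on MB and 1531 ± 153 a.u. on NM. The MB spot was not well above background, the mean signal there before background subtraction was 50.6 a.u., and the error was as large as the subtracted value, so only a bound can be given for MB. Relative to the mean of GAPDH, ACTB and HSP90AA1, FUT1 was at least 8.09-fold lower on MB than on OM and at least 88.0-fold lower than on NM. The NM signal was 10.9-fold that of OM, a log2 ratio of 3.44 ± 0.21.

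SV2B was measured well above background on all 3 arrays. The probe (chr15:89639333-89639392, plus strand) gave 1696 ± 169.7 a.u. on OM, 222 ± 22.8 a.u. on MB and 7056 ± 706 a.u. on NM. On the scaled values MB was 7.47-fold lower than OM (log2 ratio -2.90 ± 0.21) and 35.4-fold lower than NM. NM was 4.74-fold above OM. The levels on the 3 arrays were therefore separated by far more than the error of a spot.

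GSTT1 had a pair of probes that did not behave alike. The brighter one gave 109 ± 12.0 a.u. on OM, 16.4 ± 4.83 a.u. on MB and 357 ± 36.4 a.u. on NM. MB was not well above background, so GSTT1 was at least 5.47-fold lower on MB than on OM and at least 20.5-fold lower than on NM, and NM was 3.75-fold above OM. The other probe gave 9.83, 4.49 and 6.62 a.u. on OM, MB and NM, each too near background to count as measured. The GSTT1 pattern thus rests on 1 probe, and which of the probes reads the transcript was not tested.

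ANKFN1 (chr17:51913047-51913106, plus strand) gave 320.3 ± 32.4 a.u. on OM, 22.1 ± 5.24 a.u. on MB and 933 ± 93.6 a.u. on NM. The MB spot was not well above background. ANKFN1 was 14.1-fold lower on MB than on OM (log2 error 0.37) and 47.0-fold lower than on NM (log2 error 0.37). These are ratios to a signal near background and not bounds. NM was 3.32-fold above OM.

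FAM49A, the restrainer of RAC1 signalling, was the other gene measured on every array. Its 60-base probe is placed on a stretch of 2129 bases (chr2:16655856-16657984, minus strand). It gave 705 ± 70.7 a.u. on OM, 54.9 ± 6.87 a.u. on MB and 1823 ± 182 a.u. on NM. MB was 12.6-fold lower than OM (log2 ratio -3.65 ± 0.23) and 37.0-fold lower than NM, and NM was 2.95-fold above OM.

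Both probes of MOBKL2B had the same order of arrays, with steps of different size. The brighter (chr9:27315984-27316043, minus strand) gave 118 ± 12.6 a.u. on OM, 13.4 ± 4.35 a.u. on MB and 294 ± 30.1 a.u. on NM. With MB not well above background, the gene was at least 5.94-fold lower on MB than on OM and at least 16.9-fold lower than on NM, and NM was 2.85-fold above OM. The dimmer probe (chr9:27319620-27319679) gave 27.8 ± 6.10, 16.0 ± 5.18 and 45.6 ± 8.69 a.u. on OM, MB and NM. It was again highest on NM and again not well above background on MB, but its bounds were only 1.40-fold against OM and 2.62-fold against NM, and NM was 1.87-fold above OM.

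ECM2 gave 147 ± 15.7 a.u. on OM, 22.4 ± 5.50 a.u. on MB and 315 ± 32.3 a.u. on NM with its brighter probe (chr9:92337769-92337828, minus strand). MB was not well above background, and ECM2 was 6.39-fold lower there than on OM (log2 error 0.39) and 15.6-fold lower than on NM (log2 error 0.38). As for ANKFN1, these are ratios and not bounds. NM was 2.45-fold above OM, the smallest ratio of the 7. The other probe (chr9:92359316-92359375), designed to a different cDNA, gave 4.60, 4.17 and 6.25 a.u., which was at background throughout.

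**Figure D1:**
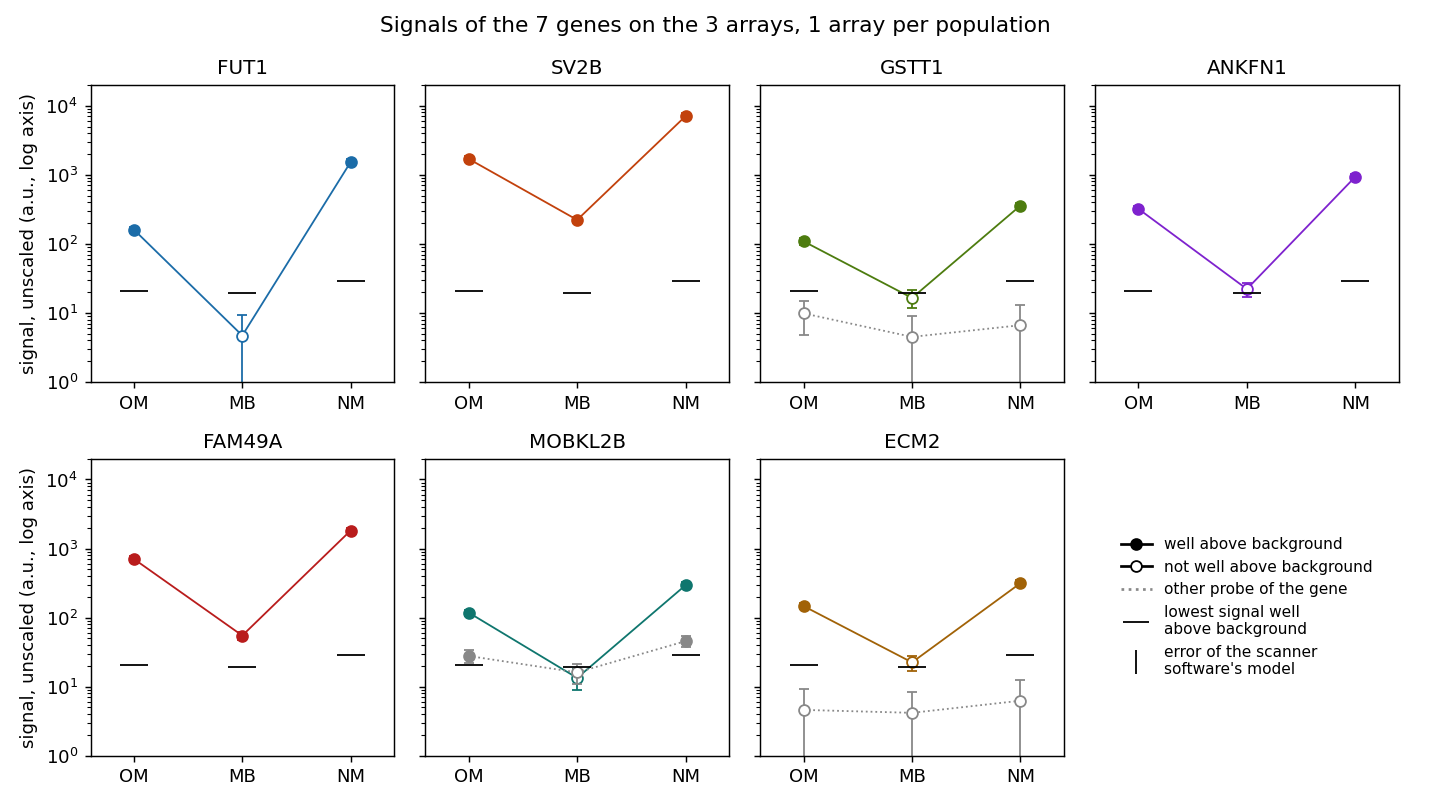
Unscaled signal in a.u. (log axis) of every probe of the 7 genes on OM, MB and NM, with the error of the scanner software's model as bars (those that reach 0 run off the log axis) and the lowest signal well above background on each array as a dash. Coloured lines are the brightest probe of a gene and grey dotted lines the other probe. In all 7 panels the brightest probe is lowest on MB and highest on NM, and 5 of the 7 MB points are open, which means not well above background.

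All 7 brightest probes followed the same order, NM above OM above MB, and no spot of the 10 probes was saturated or marked as an outlier. By the threshold of a 5-fold difference with the brighter array above 100 a.u., 7 of the 7 genes were lower on MB than on OM, where 0.349% of the 40984 probes tested were. Against NM, 7 of 7 were lower on MB by the same threshold, beside 0.844% of all probes. A 2-fold difference or more of NM over OM was seen for 7 of 7, beside 2.26% of all probes, and 0.0439% of all probes (18 of 40979) passed all 3 thresholds. Because the genes were picked for passing, nothing is read from these counts. On the log2 scale the median of the 7 was -3.11 between MB and OM (-2.90 with bounds in place of signals at background), -5.15 for MB relative to NM, and 1.73 for NM relative to OM. Over all probes well above background on either array, those medians were 0.11, 0.10 and 0.03.

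The fall on MB was the part that rested most on the handling of background. When background was corrected by the normexp method, the count of genes at least 5-fold lower on MB than on OM was 2 (SV2B and FAM49A), and with no background subtraction it was 3, with ANKFN1 added. Demanding a signal well above background on both arrays left 2 genes, and averaging all probes of a gene left 4, without GSTT1, MOBKL2B and ECM2. The share of all probes at least 5-fold lower on MB than on OM moved as well, to 0.102% with normexp, 0.115% with no background subtraction and 0.847% with no filter on dim signals. The "at least" folds and the ratios of ANKFN1 and ECM2 hold for background-subtracted signals only. The normexp method, which adds 50 a.u. to each signal, gave smaller ones. With it MB was below OM by 3.15-fold for FUT1, 1.87-fold for GSTT1, 4.24-fold for ANKFN1, 2.36-fold for MOBKL2B and 2.31-fold for ECM2. Against NM the fold with normexp was 24.5 for FUT1, 5.26 for GSTT1, 12.2 for ANKFN1, 5.09 for MOBKL2B and 4.66 for ECM2. All 7 genes stayed at least 2-fold higher on NM than on OM under each of the 15 alternatives, with ECM2 nearest the line at 2.02-fold. Not all of these could move that ratio. The deposited value table, the changes of filter and the setting of signals at background to the lowest one measured left it as it was. Averaging over probes could do so only for genes with more than 1 probe.

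**Figure D2:**
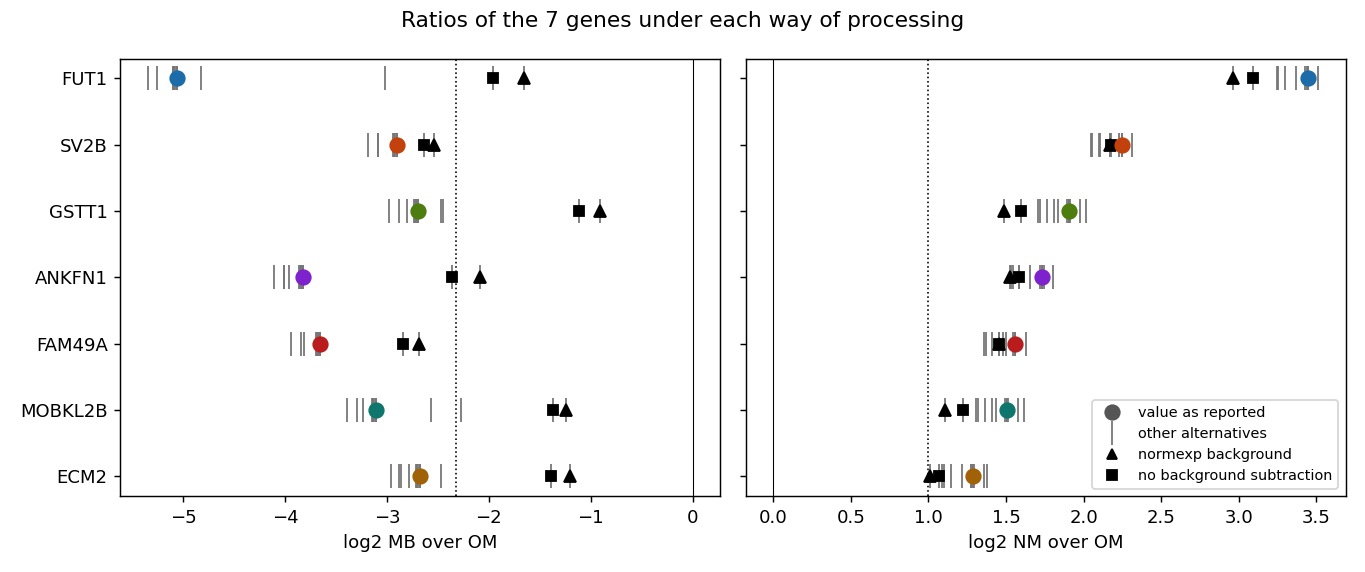
Log2 ratio of MB over OM (left) and of NM over OM (right) of each gene under the processing used here (coloured points) and under each alternative (grey ticks, black triangles and black squares), with dotted lines at 5-fold and at 2-fold. On the left, normexp correction and no background subtraction move FUT1, GSTT1, MOBKL2B and ECM2 to the right of the 5-fold line, while on the right every mark is beyond the 2-fold line.

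In the order of NM over OM, FUT1 stood 1.20 log2 units above SV2B, which is larger than the combined error of 0.29. SV2B was 0.34 above GSTT1 with a combined error of 0.30. The remaining neighbours in the order (GSTT1, ANKFN1, FAM49A, MOBKL2B and ECM2) each differed by 0.22 or less, which is within their combined errors. Of the 10 pairs among the last 5 genes, 4 differed by more than their combined error, among them GSTT1 and ECM2 (0.62 against 0.30). The error model is wider than the spread of replicate spots, for which the SD of the log2 ratio of NM over OM was 0.07 over 48 probes of between 100 and 1000 a.u., and neither covers the variation between cultures.

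Position on the slide was also looked at, a check added after the data had been seen. Among the spots within 2 rows and 2 columns of the brightest probe of each gene, the median log2 ratio of NM over OM lay between -0.04 and 0.18. The values of the genes themselves were 1.29 to 3.44. Around the GSTT1 probe, which sits in the first column of the array, 4 of 14 spots were also 2-fold or more higher on NM with a signal above 100 a.u. Such spots numbered 2 of 24 around FUT1, 2 of 24 around ECM2, 1 of 23 around FAM49A and 0 around the brightest probes of SV2B, ANKFN1 and MOBKL2B. The part of position in the GSTT1 ratio was not tested.

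A larger group of 60 genes was at least 5-fold lower on MB than on both monolayers, and the 7 genes are placed among these by how far they went beyond the starting level. Of the 60, 44 were higher on NM than on OM, 18 by 2-fold or more, and the median ratio was 1.49-fold. FUT1 held rank 1, SV2B rank 5, GSTT1 rank 7, ANKFN1 rank 10, FAM49A rank 11, MOBKL2B rank 12 and ECM2 rank 15. The 11 others of the 18 were TNFRSF9, IL8, CXCL2, CXCL1, CXCL3, C8orf13, PSAT1, CIAS1, RGS9 and the unnamed transcripts AI801879 and A_32_P153361. Several of those encode inflammatory signals, among them the chemokines IL8, CXCL1, CXCL2 and CXCL3 and the cytokine receptor TNFRSF9. None of the 7 encodes a cytokine or a cytokine receptor, but the 7 are a chosen list, so nothing is read from that difference.

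**Figure D3:**
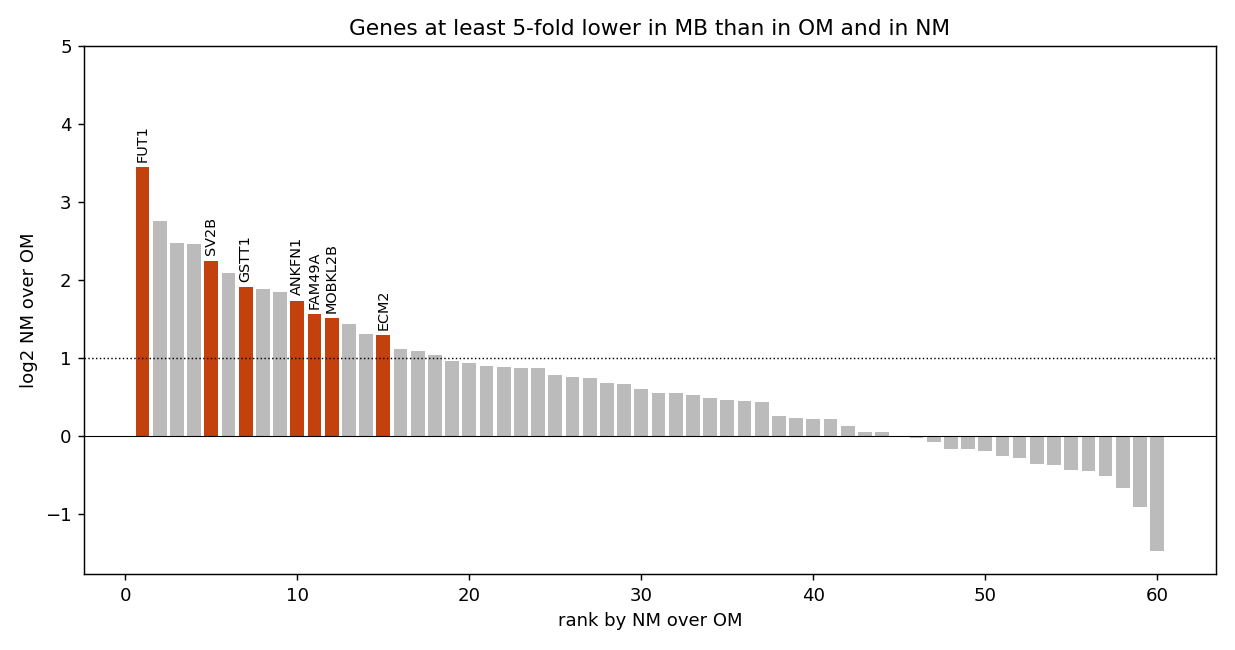
Log2 ratio of NM over OM (vertical axis) for the 60 genes at least 5-fold lower on MB than on OM and NM, in order of that ratio, with the 7 genes in orange and named and a dotted line at 2-fold. The 7 genes lie within the first 15 ranks, and FUT1 is the highest.

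The genes with the most similar course were sought among 17625 others. Distance was taken in the plane of log2 MB over OM and log2 NM over OM. Signals at background were set to the lowest signal measured well above background. For ANKFN1 and ECM2 this lowered the MB signal. Their log2 MB over OM was -4.01 and -2.89 here, against -3.82 and -2.68 before that step. The 10 nearest to the median of the 7 were C8orf13, A_32_P153361, CXCL1, AI801879, DDIT3, FLJ35024, PSAT1, RGS9, IL21R and CIAS1, at distances from 0.34 to 0.76. DDIT3, a transcription factor of the stress response, gave 3790.4, 761 and 11755 a.u. on OM, MB and NM. Taken singly, the nearest gene was TNFRSF9 to FUT1 (distance 0.80), CXCL1 to SV2B (0.39), C8orf13 to GSTT1 (0.14), IL8 to ANKFN1 (0.75), STC2 to FAM49A (0.69), AI801879 to MOBKL2B (0.19) and A_32_P153361 to ECM2 (0.05). These distances rest on 3 arrays that all genes share, and they describe the signals only.

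**Figure D4:**
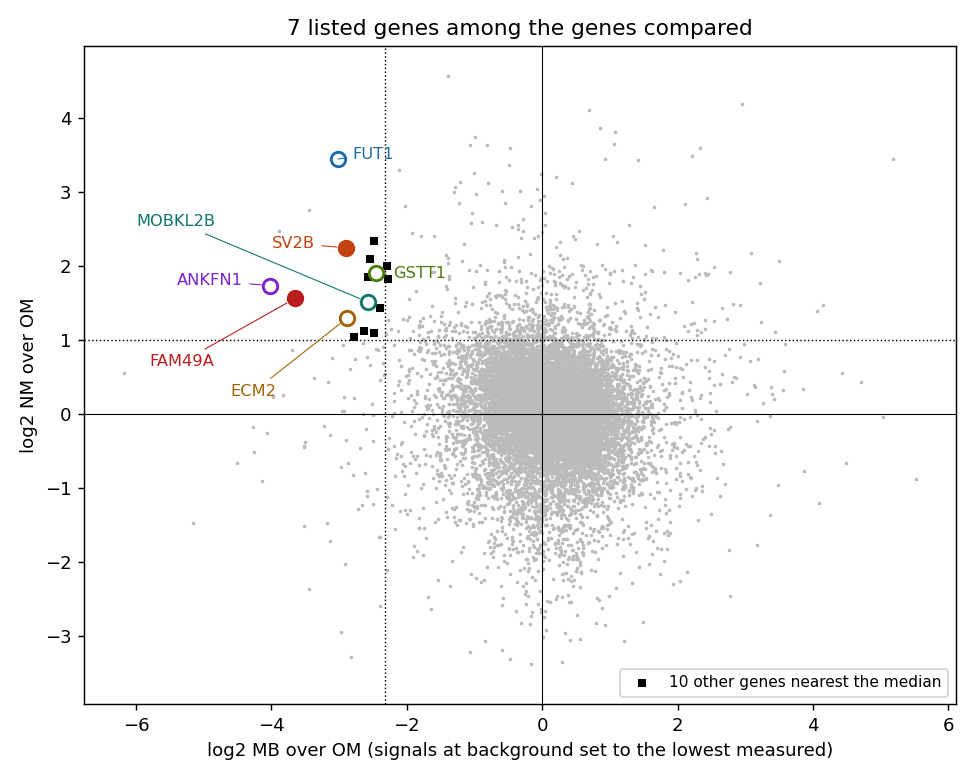
Log2 ratio of MB over OM (horizontal axis) against log2 ratio of NM over OM (vertical axis) for the genes compared (grey), the 7 genes (circles, open where MB was not well above background) and the 10 nearest to their median (black squares), with dotted lines at 5-fold lower and 2-fold higher. The 7 genes lie in the upper left, with FUT1 highest at 3.44 and the grey points centred near 0. Signals at background are set as for the distances in the text.

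Relatives of the 7 genes were then examined through lists of the same family or pathway. No other gene on any of the 6 lists was both 2-fold lower on MB than on OM and 2-fold higher on NM than on OM, under this or any other scaling tried, with 59 of the list genes above 100 a.u. in the comparison of MB with OM. Of all probes above 100 a.u. in both comparisons, 0.417% were, so that a count of 0 is near the background. The shares of all probes above 100 a.u. past 2-fold, for reading the counts of each list, were 6.85% higher and 4% lower on MB than on OM, 14.3% higher and 9.54% lower on MB than on NM, and 3.92% higher on NM than on OM. Among the 12 other fucosyltransferases on the array, 7 had a signal above 100 a.u. in the comparison of MB with OM, and 0 of them differed by 2-fold either way. FUT4, which adds fucose to make Lewis x type structures, gave 899.96, 633 and 1242 a.u. on OM, MB and NM. Its order of arrays was that of FUT1 with smaller steps, MB being 2.19-fold lower than NM. POFUT1, which puts O-fucose on Notch receptors, had the same order at 302, 212 and 412 a.u., while FUT11 had the opposite one at 626, 995 and 406 a.u. Under the scalings tried, the number of these genes 2-fold lower on MB than on NM ranged from 0 to 2.

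The synaptic vesicle list showed separate courses for the relatives of SV2B. Of 24 other genes, 14 were above 100 a.u. in MB or OM, with 2 higher on MB by 2-fold and 0 lower. SYT1 fell just short of that cut, at 97.5 a.u. on OM, 5.29 a.u. on MB and 14.1 a.u. on NM. It was well above background on OM only, with a log2 ratio of MB over OM of -4.17. Unlike SV2B, SYT1 was lower on NM than on OM. SV2C, the sister protein of SV2B, was well above background only on MB (120.4 a.u.), which is at least 5.90-fold above OM and at least 3.71-fold above NM. SNAP25, a SNARE protein of vesicle fusion, gave 137, 375 and 72.3 a.u. in the same order of arrays, with MB 2.81-fold above OM. Synaptophysin (SYP) gave 26.0, 25.0 and 170 a.u., so that it was 7.43-fold higher on NM than on OM, while its log2 ratio of MB over OM was -0.03. SYN1, a synapsin that tethers vesicles, gave 8164, 4689.6 and 11391 a.u., ranked over the arrays as SV2B was, with MB 2.71-fold lower than NM. Other scalings put up to 2 genes of this list 2-fold lower on MB than on OM.

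Of the 19 other glutathione S-transferases on the array, 11 were above 100 a.u., and 0 of these passed 2-fold in any of the 3 comparisons, with medians of 0.15 (MB over OM) and 0.30 (NM over OM) on the log2 scale. The list of FAM49 proteins, RAC1 and the WAVE complex had 11 other genes above 100 a.u., of which 1 passed 2-fold. It was CYFIP2, a WAVE complex subunit, at 1322, 3862 and 899 a.u. on OM, MB and NM, with MB 2.99-fold above OM, opposite to FAM49A. For MOB proteins and the Hippo and NDR kinases, 12 of 13 other genes were above 100 a.u. and 0 passed 2-fold between MB and OM. The NDR kinases STK38 and STK38L were 2.00-fold and 2.03-fold higher on MB than on NM, which not every scaling kept past 2-fold (0 to 2 genes).

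Among the small leucine-rich matrix proteins, PRELP, BGN and FMOD were higher on MB than on OM, where ECM2 was lower. PRELP, a proteoglycan of basement membranes, gave 80.8, 1403 and 197 a.u. on OM, MB and NM, with MB 17.8-fold above OM. BGN (biglycan) gave 75.1, 366 and 244 a.u. and was 4.99-fold higher on MB. FMOD (fibromodulin) was measured only on MB, at 125 a.u., at least 6.13-fold above OM. Of 14 other genes on this list, 4 were above 100 a.u. between MB and OM, and 3 of those were 2-fold higher on MB, 0 lower. The remaining gene of the 4, ECM1, was 1.30-fold higher, but it is a matrix protein without leucine-rich repeats. The other 10 were too dim for the comparison. PRELP and BGN were also higher on NM than on OM, by 2.78-fold and 3.71-fold, and the counts of this list were the same under every scaling tried.

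**Figure D5:**
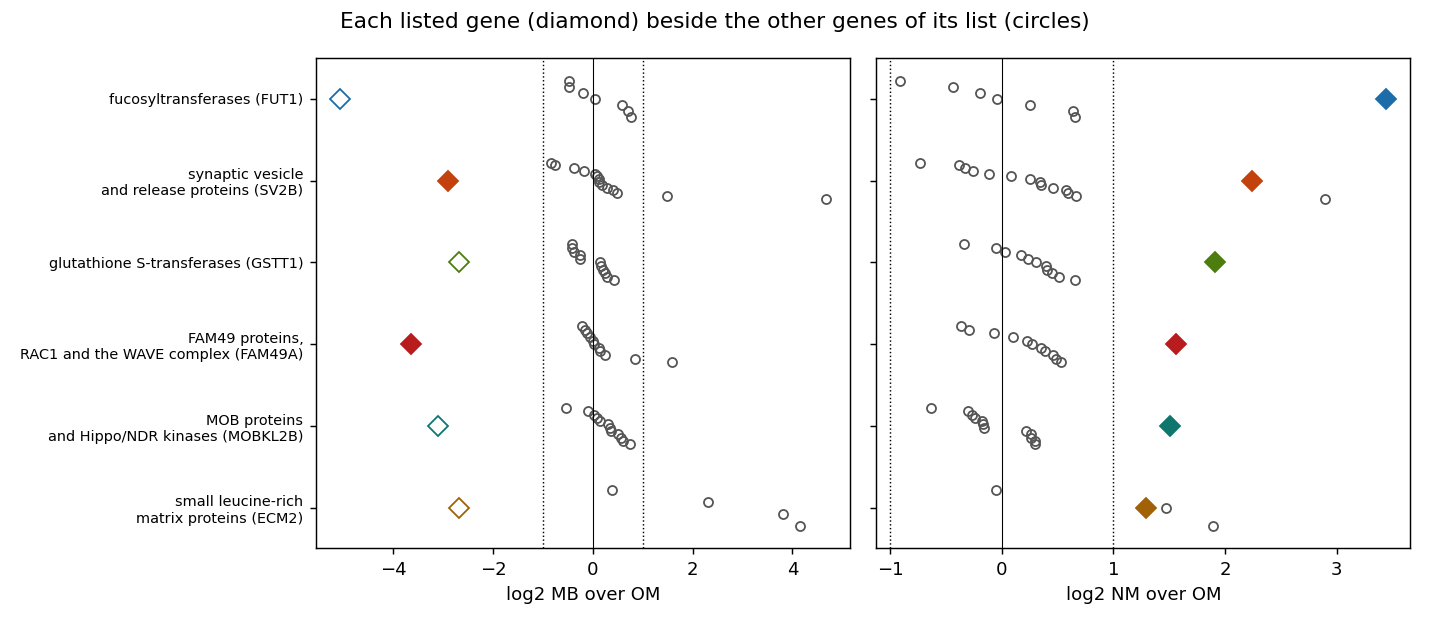
Log2 ratios of MB over OM (left) and NM over OM (right) for each of 6 genes (diamonds, open where the first named array was not well above background) and for the other genes of its list with a signal above 100 a.u. on either array (circles), with dotted lines at 2-fold. The diamonds lie left of all circles of their row on the left panel. SYT1 (-4.17 for MB over OM), left of SV2B, is not drawn because its signals were below 100 a.u. SV2C (4.68) and FMOD (3.81) on the left are plotted at their measured ratios, although OM was not well above background.

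Genes that lie beside the 7 on the chromosome gave no shared pattern that could be measured. Distances here run from probe to probe and not between the ends of genes. The nearest named genes within 250 kb on either side were IZUMO1 and FGF21 for FUT1, HS322B1A and CABIN1 for GSTT1, NOG for ANKFN1, C9orf11 and IFNK for MOBKL2B, and ASPN and CENPP for ECM2, and SV2B and FAM49A had none in that window. CABIN1 and CENPP were well above background, and the others were not on any array. CABIN1, with its probe 198 kb from that of GSTT1, gave 1763, 1724 and 1364 a.u. on OM, MB and NM. CENPP, a centromere protein with its probe 117 kb from that of ECM2, gave 3441, 5285 and 4961 a.u. It was thus higher on MB than on OM by 0.65 log2 units while ECM2 was lower. ASPN, the leucine-rich neighbour of ECM2, was at 5.41, 19.1 and 5.85 a.u.

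Promoters were read from RefSeq (GRCh38.p14), as the 250 bases before the annotated start. They were found for 5 of the 7 genes under their current symbols, 9 promoters in all, with 4 for SV2B and 2 for FUT1. GSTT1 and FAM49A had no entry. Each was searched on both strands for 7 motifs, and no promoter held more than 1 kind of them. The AP-1 letters TGANTCA were in none of the 9, while 6.57% of all 35116 promoters held them. The NF-kB motif and the E-box letters CACGTG were also in none, beside 1.73% and 6.34% of all promoters. A single FUT1 promoter held the ATF4 letters TGATGCAA, which 0.772% of all promoters did. The TEAD letters CATTCC were found in the promoter of ECM2, as in 11.9% of all. For SV2B, 1 promoter held the TATA letters TATAAA (10.7% of all promoters). GC boxes, with the letters GGGCGG, were in 1 promoter each of FUT1 and SV2B and in 42.6% of all. No motif was held by more than 2 of the 5 genes. A match describes letters, and which start is used in 1205Lu cells was not measured.

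The promoters that held a match are printed in gene orientation so that the letters found can be seen in place, with the motif in capitals. They are the FUT1 promoter with GC boxes (chr19:48752642-48752891), the FUT1 promoter with ATF4 letters (chr19:48755359-48755608), the SV2B promoters with GC boxes (chr15:91100007-91100256) and with TATA letters (chr15:91101546-91101795), and the ECM2 promoter with TEAD letters (chr9:92535991-92536240).
FUT1, GC box: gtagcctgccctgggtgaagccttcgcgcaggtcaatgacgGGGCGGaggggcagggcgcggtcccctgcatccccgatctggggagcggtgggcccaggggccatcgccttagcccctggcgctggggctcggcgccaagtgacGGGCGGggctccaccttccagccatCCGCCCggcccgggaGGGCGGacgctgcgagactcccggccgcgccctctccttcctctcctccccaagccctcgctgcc
FUT1, ATF4: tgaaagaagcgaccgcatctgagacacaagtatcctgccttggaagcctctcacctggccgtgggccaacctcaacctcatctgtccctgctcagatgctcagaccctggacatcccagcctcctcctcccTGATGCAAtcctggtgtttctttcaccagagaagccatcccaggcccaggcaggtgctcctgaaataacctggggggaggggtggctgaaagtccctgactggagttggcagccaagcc
SV2B, GC box: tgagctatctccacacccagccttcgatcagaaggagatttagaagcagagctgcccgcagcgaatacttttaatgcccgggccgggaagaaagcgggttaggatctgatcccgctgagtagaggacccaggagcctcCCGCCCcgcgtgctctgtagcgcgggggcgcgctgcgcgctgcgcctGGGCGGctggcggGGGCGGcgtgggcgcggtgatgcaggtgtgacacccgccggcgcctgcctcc
SV2B, TATA: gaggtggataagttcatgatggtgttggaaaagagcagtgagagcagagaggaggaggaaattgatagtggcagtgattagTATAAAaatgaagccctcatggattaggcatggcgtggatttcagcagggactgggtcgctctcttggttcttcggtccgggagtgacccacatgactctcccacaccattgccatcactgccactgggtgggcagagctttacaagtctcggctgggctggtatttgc
ECM2, TEAD: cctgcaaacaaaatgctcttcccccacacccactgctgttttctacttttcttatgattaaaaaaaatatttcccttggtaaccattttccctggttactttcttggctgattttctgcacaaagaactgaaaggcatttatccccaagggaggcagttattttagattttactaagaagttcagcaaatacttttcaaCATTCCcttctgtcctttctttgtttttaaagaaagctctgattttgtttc
The ECM2 promoter has 36% G and C and 0 CpG, while the GC box promoters of FUT1 and SV2B have 74.8% with 24 CpG and 67.6% with 26 CpG, beside a median of 58% and 11 CpG over all promoters.

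The arrays and the cells were checked against their labels. Between 26516 (NM) and 29126 (MB) of the 41000 probes were well above background, and the lowest such signal was 20.9, 19.4 and 29.1 a.u. for OM, MB and NM. Of 9 melanocyte and melanoma markers, 7 were well above background on OM and on MB and 6 on NM. TYR and TYRP1, enzymes of pigment synthesis, were at background on all 3. The summed signal of that list came to 34978, 60120.4 and 20778 a.u. for OM, MB and NM, of which S100B alone gave 25155, 43760.3 and 13307 a.u. SILV (286, 209 and 271 a.u.) and DCT (66.7, 62.8 and 64.1 a.u.) were lowest on MB, unlike that sum. All 4 neural crest and dedifferentiation markers were well above background on every array. Their sums were 57043, 47217 and 39308 a.u., of which AXL alone gave 49859.6, 37070.5 and 33699 a.u. Of the other markers on that list, EGFR (596, 396 and 2062 a.u.) had the same order of arrays as the 7 genes. NGFR gave 123, 346 and 525 a.u., and SOX9 was lowest on NM. Of 6 markers of other cell types on the array, 2 were well above background on OM and NM and 3 on MB, with sums of 216, 266 and 189 a.u. CD3E (110, 84.8 and 87.4 a.u.) and CD14 (70.3, 60.2 and 58.7 a.u.) were well above background on every array. PTPRC, KRT5 and COL1A1 were not well above background anywhere. PECAM1, an endothelial marker, was well above background on MB alone (12.3, 87.7 and 13.6 a.u.). The part of these markers in the pattern of the 7 genes was not tested. In RNA from whole cultures, fewer cells that express a gene and less RNA per cell cannot be told apart.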

How the data were processed

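Signals of 3 arrays (OM, MB and NM, grouped by the labels) were taken from the scanner files. The authors deposited an intensity for every spot as Agilent Feature Extraction (version 9.5.3.1) gave it, in arbitrary units on a linear scale. Per the file headers and columns, a fitted spatial surface had been subtracted as background and no scaling between arrays was recorded. Subtraction was not the only step. The deposited SV2B signal on OM was 1696 a.u., above the mean of 1482 a.u. before subtraction. The normexp and no-subtraction alternatives start from the mean signal before subtraction. They therefore also leave out any such further step, and do not isolate the handling of background. In the value table of the series, 130128 of 130128 entries equal this deposited intensity (within 0.1%).

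Control spots and outlier spots were dropped, replicate spots averaged, and signals divided by the array's mean of GAPDH, ACTB and HSP90AA1, relative to OM (divisors 1, 0.978 and 0.877 for OM, MB and NM). Where the dimmer signal did not count as well above background, the fold was taken against the higher of that signal and the lowest signal well above background. It is called "at least" where the latter was used. The brightest probe represents a gene. A call needed 5-fold (2-fold for NM over OM) and more than 100 a.u. on the brighter array. With 1 array per population no test was run.

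The 7 genes, the gene lists and the motifs were chosen with earlier results of these data known. Genes named beside the 7 are list members past 2-fold (at most 6 per list), the 10 most alike and the nearest to each gene, chromosomal neighbours within 250 kb, and genes lower on MB than on both monolayers. Probe sequences and positions of GSTT1 are not reported here. Symbols of 7 of 7 genes matched RefSeq names (GRCh38.p14). The 15 alternatives covered scaling (8 spike-in probes among them), background, filters, outliers and probe averaging. On simulated MB and OM arrays of 41000 probes, 100 of 100 probes changed 8-fold and 0 of 100 changed 3-fold passed the 5-fold threshold, as did 0 unchanged probes. The changed probes were bright ones with little added noise, so this checks the calculation only and does not cover signals near background. Tools were Python 3.11.15, numpy 2.4.6, pandas 2.3.3, matplotlib 3.10.9 and, for normexp (offset 50), limma 3.58.1 in R 4.3.3.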

Additional observations from a re-analysis of the deposited data

How the results depend on the processing

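With 1 array per population, the limits are the number of arrays and the height of the signal over background. On MB, 5 of the 7 genes were not well above background, so the depth of their fall is a bound or, for ANKFN1 and ECM2, a ratio to a signal near background. The count of genes 5-fold lower on MB than on OM was 7, and it became 2 with normexp background correction, 3 with no background subtraction, 4 with the mean over all probes of a gene and 2 when both arrays had to be well above background. This last setting also took the count of genes lower on MB than on NM from 7 to 2, because it leaves out the 5 genes at background. Under normexp that count was 6, without ECM2. The median log2 ratio of NM over OM of the 7 genes was 1.73 and became 1.49 with normexp correction. The remaining alternatives left these counts and the median within the limits set (1.5 times for a count, the error of a ratio for the median), and 7 genes passed 2-fold for NM over OM in all 15. Of 305 ratios of single genes recomputed, 260 moved by less than their error, 45 by more and 0 changed direction. The 260 include ratios that could not move, as with the deposited value table and the changes of filter. The share of all probes 2-fold higher on NM than on OM was 2.26%, against 1.46% with 6 housekeeping genes and 4.71% with no filter on dim signals, and the share 5-fold lower on MB than on NM was 0.844%, against 0.381% with normexp and 1.37% with no such filter. Scaling to the spike-in probes put the median log2 MB over OM of measured probes at -0.18, against 0.10 with the housekeeping genes. No paired analysis was possible because each group has 1 array.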
